A study of Mus musculus with 54 samples.

Results

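The comparison of Mbd5+/GT with wild-type (WT) mice in the cerebellum rested on 18 of the 54 RNA-seq libraries of the series, 10 from Mbd5+/GT mice and 8 from WT littermates. Its members were the libraries whose sample label named the cerebellum, and every gene that passed a filter on low counts was tested. The other 36 libraries came from the cortex and striatum of the same 18 mice, with 1 library per mouse and region. All mice were 8 weeks old and on a C57BL/6 background. The Mbd5+/GT mice carried 1 WT allele of Mbd5 and 1 gene-trap allele, in which an inserted trap cassette (pU-21B) in the second intron lowers Mbd5 expression without abolishing it. The allele derives from a single embryonic stem cell line and is present in all cells, so no effect in the cerebellum can be assigned to cells of the cerebellum alone. The mice came from 3 litters. The first was all female (3 Mbd5+/GT, 3 WT), the second all male (4 Mbd5+/GT, 1 WT), and the third mixed (3 Mbd5+/GT, 4 WT). Mice are called by the numbers in their labels.

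MBD5 belongs to the family of proteins with a methyl-CpG-binding domain, which in other members reads methylated DNA, and it associates with the PR-DUB complex, a histone H2A deubiquitinase built around BAP1. Loss of 1 copy of the human gene causes a neurodevelopmental disorder with intellectual disability, seizures and autistic features. The cerebellum is a structure of few, sharply distinct neuron types: abundant granule cells send excitatory parallel fibres to Purkinje cells, the sole output neurons of its cortex, under the control of inhibitory interneurons of the molecular and granular layers. Defining transcripts of these cells, such as Pcp2 in Purkinje cells and Gabra6 in granule cells, are scarce elsewhere in the brain and therefore check the dissection.

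Between 25611034 and 45718952 reads per cerebellum library were counted on genes. Of the libraries, 17 had the markers of the labelled tissue and 1 did not. In the library labelled cerebellum of Mbd5+/GT mouse M755, Pcp2 stood at 1.65 CPM (counts scaled to library size) and Gabra6 at 1.81 CPM. The other libraries held 100 to 537 CPM of Pcp2 and 231 to 953 CPM of Gabra6. The same library held 599 CPM of reads on Hox genes, which are expressed in the hindbrain behind the cerebellum and in the spinal cord, and 13800 CPM of the myelin gene Mbp. WT mouse M754 had the next lowest Pcp2 and Gabra6 and 176 CPM of Hox reads, WT mouse M761 had 68.6 CPM and Mbd5+/GT mouse M756 had 65.9 CPM, whereas no other library exceeded 5.05 CPM. The choroid plexus transcript Ttr ranged from 4.05 to 2380 CPM in Mbd5+/GT and from 5.88 to 2390 CPM in WT libraries. The fits of genes and lists were therefore also computed without mouse M755 and without all 4 libraries with Hox counts (mice M754, M755, M756 and M761, all female). The latter left 8 Mbd5+/GT and 6 WT mice. Precision, directions within litters and sexes, and values by chromosome position are given for all 18 libraries only. Exact permutation tests of single genes were run with all mice and without the 4 libraries. Xist and Ddx3y matched the labelled sex in 18 of 18 libraries.

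**Figure D1:**
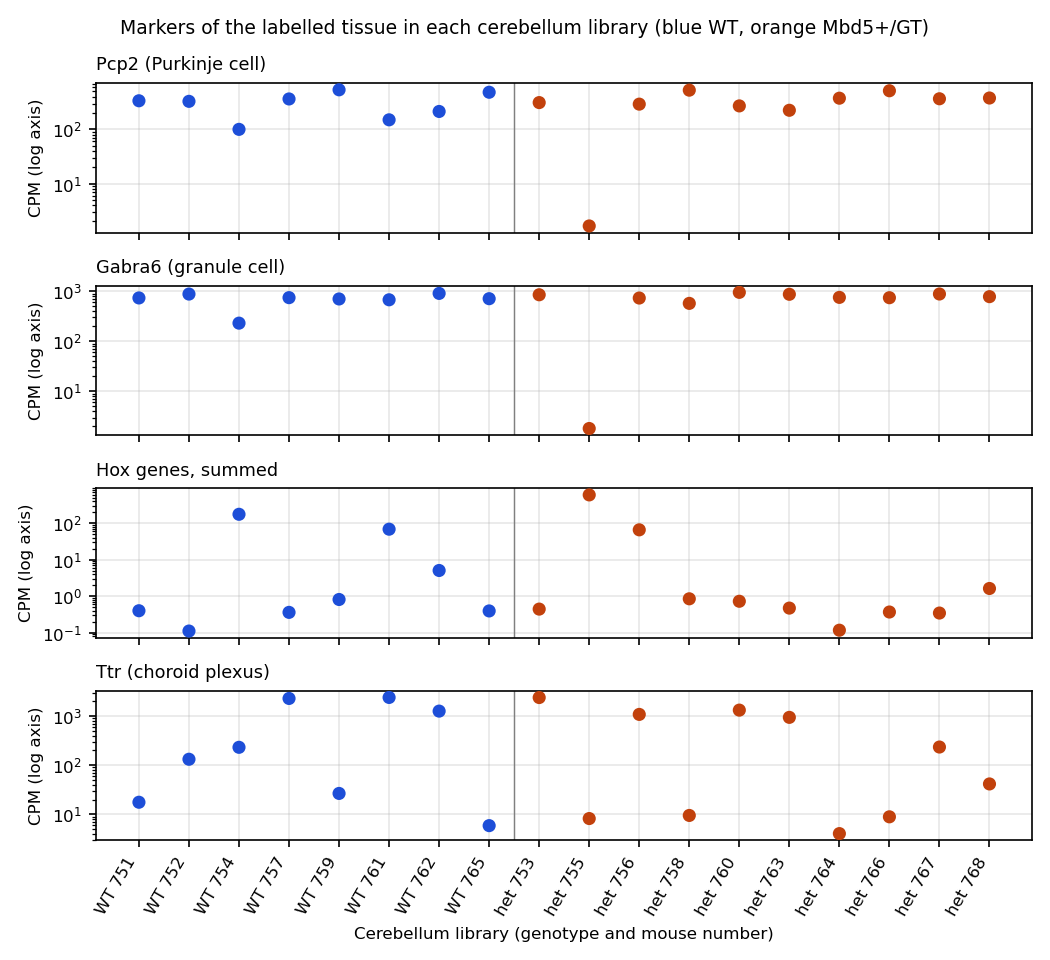
CPM (log axis) of Pcp2, Gabra6, the summed Hox genes and Ttr in each of the 18 cerebellum libraries, with WT in blue and Mbd5+/GT in orange. The library of mouse M755 lies at 1.65 CPM of Pcp2 and 1.81 CPM of Gabra6 with the most Hox reads, and Ttr spans about the same range in both genotypes.

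Mbd5 itself, on chr2:48949508-49325405 of GRCm38, was lower in Mbd5+/GT cerebellum. Its TMM-normalized counts, which are counts scaled to a common effective library size, were 937 at the lowest, 1268 at the median and 2073 at the highest in the 10 Mbd5+/GT mice, against 1342, 1736 and 2379 in the 8 WT mice. The groups overlapped, and 9 of the 10 Mbd5+/GT mice lay below the WT median. The means were 1336 ± 342 (SD, n = 10) and 1746 ± 339 (SD, n = 8), so the Mbd5+/GT mean was 76.5% of the WT mean. The log2 fold change was -0.34 with a standard error of 0.048 (95% interval -0.44 to -0.24) and an adjusted p of 0.00912 by the edgeR quasi-likelihood test with 2 surrogate variables. Surrogate variables are factors estimated from the expression data to absorb variation that the genotype does not account for. A 2-sided exact permutation test of log2 CPM over all 43758 splits of the mice gave p = 0.018, and restricting it to the 3500 splits with each litter's own group sizes gave p = 0.023. Mean log2 CPM was lower in Mbd5+/GT mice by 0.27 in litter 1, 0.39 in litter 2 and 0.36 in litter 3.

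The call on Mbd5 depended on the model. Without mouse M755 the log2 fold change was -0.38 and the adjusted p by edgeR 0.00295, and without the 4 libraries with Hox counts they were -0.37 and 0.0143. The exact permutation test, which uses no surrogate variables, gave p = 0.057 without those 4 libraries. Without surrogate variables the edgeR fold change was -0.39 with an adjusted p of 1, and without WT mouse M759 the adjusted p with surrogate variables was 0.0619.

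**Figure D2:**
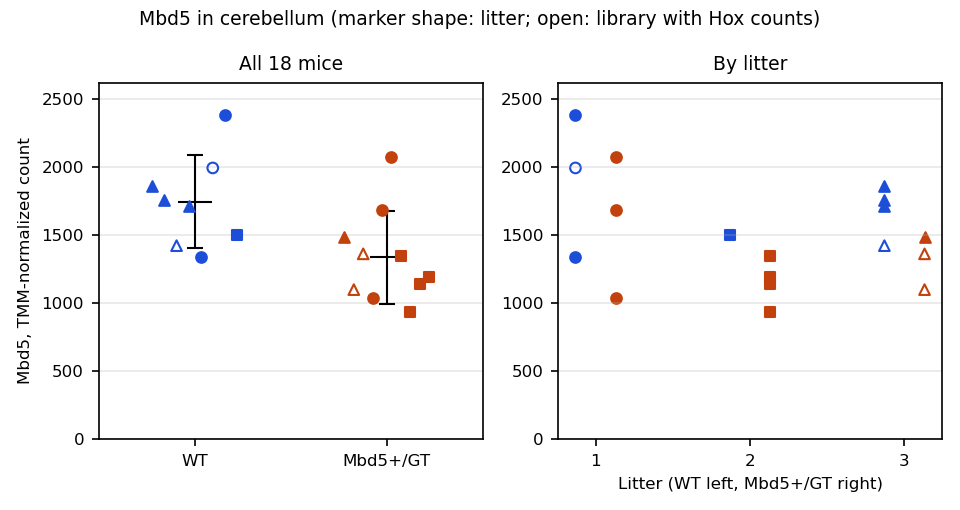
TMM-normalized counts of Mbd5 by mouse, for all 18 mice with the mean and SD of each genotype (left) and by litter (right), with marker shape for litter and open markers for libraries with Hox counts. The Mbd5+/GT mice range from 937 to 2073 and the WT mice from 1342 to 2379, and Mbd5+/GT lies lower on average within each litter.

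Beyond Mbd5, no gene passed the adjusted threshold in the cerebellum by edgeR with all 18 libraries and 2 surrogate variables. By DESeq2 with the same surrogate variables, Wipf3 and Gpr26 passed it as well, both lower in Mbd5+/GT. The study also reported both of these genes as downregulated in the cerebellum. Whether a gene beyond Mbd5 was called thus depended on the test. Of 18160 genes tested, 1 (0.00551%) had an adjusted p under 0.05 by edgeR, which was Mbd5. An unadjusted p under 0.05, the study's definition of a nominally differentially expressed gene (nDEG), was reached by 499 genes or 2.75% of those tested. That share is below the one that a threshold of 0.05 gives on average where no gene differs. The number of nDEGs alone is therefore no sign that genes beyond Mbd5 differ. The nDEGs comprised 175 genes (0.964%) with higher and 324 (1.78%) with lower expression in Mbd5+/GT. Without mouse M755 there were 408 nDEGs (2.26%), without the 4 libraries with Hox counts 547 (3.02%), and without surrogate variables 84 (0.463%). Of the 499 nDEGs, 246 were nDEGs in the same direction without mouse M755 and 256 without the 4 libraries, and 198 were in all 3 sets. In no gene were the normalized counts of the 10 Mbd5+/GT mice separate from those of the 8 WT mice, and without the 4 libraries with Hox counts they were in 2 genes (0.011%).

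Standard errors of the log2 fold changes had a median of 0.072 over all genes and 0.055 over the 12514 genes with a mean normalized count of at least 100. The 95% interval of the fold change lay within 1.5-fold in either direction for 83.3% of all genes and for 98.5% of those with at least 100 counts. It lay within 2-fold for 95.7% and 99.5%. Among the 271 nDEGs with at least 100 counts, only 1 exceeded a fold change of 1.5, the interferon-stimulated gene Ifit1 with a log2 fold change of 0.59.

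The genes with the lowest p after Mbd5 were lower in Mbd5+/GT mice. Wipf3 (chr6:54429603-54503768) encodes a member of the WIP family, which binds WASP proteins and so acts on actin assembly. Its normalized counts were 476, 1208 and 1486 (lowest, median, highest) in Mbd5+/GT and 978, 1451 and 1729 in WT mice. The groups overlapped, and the lowest values of both genotypes came from mice M755 and M754. The log2 fold change was -0.30 with a standard error of 0.053 and an adjusted p of 0.112 by edgeR. Without the 4 libraries with Hox counts it was -0.26 with an adjusted p of 0.15, and by DESeq2 with the same surrogate variables the adjusted p was 0.0015. Wipf1, of the same family, was an nDEG in the same direction with a log2 fold change of -0.12 (unadjusted p = 0.036 by edgeR), so that 2 of 24 genes of the WASP, WAVE and Arp2/3 machinery were lower nDEGs, against 1.78% of all genes. Without mouse M755 1 of the 24 was lower (Wipf3), without the 4 libraries with Hox counts 3, and without surrogate variables 0.

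Gpr26 (chr7:131966460-131994405) encodes an orphan G protein-coupled receptor. Its counts were 134, 217 and 1857 in Mbd5+/GT and 236, 384 and 1088 in WT mice, with the highest value of each genotype again in mice M755 and M754. Without the 4 libraries with Hox counts the log2 fold change was -0.74 (adjusted p = 0.15 by edgeR), against -0.56 (adjusted p = 0.447) with them, while mean log2 CPM in litter 3, which holds mice M754, M755 and M756, was higher in Mbd5+/GT by 0.30. By DESeq2 with the same surrogate variables the adjusted p was 0.0041.

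Among the 12 lower genes of lowest p were also genes of adhesion and the matrix. Kirrel2 (chr7:30447534-30457690), an adhesion protein of the immunoglobulin superfamily, had counts of 61.5, 79.2 and 117 in Mbd5+/GT and 88.2, 99.6 and 157 in WT mice. It had a log2 fold change of -0.47 with a standard error of 0.111 (adjusted p = 0.806 by edgeR), -0.48 without the 4 libraries with Hox counts, and lower in Mbd5+/GT in each litter, by 0.39, 0.37 and 0.43. Col27a1 (chr4:63214004-63334991), a fibrillar collagen, had counts of 847, 1141 and 1430 in Mbd5+/GT and 1332, 1560 and 1992 in WT mice. The overlap was between 1332 and 1430, and the log2 fold change was -0.44 with a standard error of 0.104 (adjusted p = 0.887 by edgeR), the same to 2 decimals without the 4 libraries. Npnt, which encodes the integrin ligand nephronectin, had a log2 fold change of -0.37 with a standard error of 0.099.

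Among lower genes of transport and signalling were Slc7a3, a transporter of cationic amino acids, and Chrna3, the alpha3 subunit of nicotinic acetylcholine receptors. Slc7a3 counts were 257, 431 and 514 in Mbd5+/GT and 416, 512 and 621 in WT mice, with a log2 fold change of -0.35 and a standard error of 0.082. Chrna3 counts were 29.7, 39.5 and 126 in Mbd5+/GT and 47.4, 56.6 and 126 in WT mice, with a log2 fold change of -0.53 and a standard error of 0.117. The adjusted p-values by edgeR were 0.806 for Slc7a3 and 0.549 for Chrna3, and the highest Chrna3 count of each genotype came from mice M755 and M754. The remaining lower genes were Ndn, an imprinted gene that encodes the MAGE family protein necdin (-0.24), Rpp25, a protein subunit of RNase P and MRP (-0.36), Igfbp5, a secreted binder of insulin-like growth factors (-0.27), and Rnf144a, an E3 ubiquitin ligase (-0.18).

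The 12 higher genes of lowest p had log2 fold changes from 0.13 to 0.41. Spag5 encodes a spindle-associated protein. Its counts were 1022, 1296 and 1534 in Mbd5+/GT and 977, 1145 and 1213 in WT mice, with a log2 fold change of 0.20, a standard error of 0.057 and higher mean values in Mbd5+/GT in each litter (by 0.07, 0.21 and 0.25). Pop4, another protein subunit of RNase P, had counts of 635, 917 and 1295 against 586, 710 and 1055, with a log2 fold change of 0.30 and a standard error of 0.091. Polm, a DNA polymerase of end joining, had counts of 293, 360 and 392 against 249, 303 and 378 (log2 fold change 0.20). Isg15, an interferon-induced ubiquitin-like protein, had counts of 38.4, 55.0 and 96.2 against 34.6, 41.8 and 57.0 (0.41). In all 4 genes the ranges of the genotypes overlapped, and the adjusted p by edgeR was 0.9999 for each.

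B3galt2, a glycosyltransferase, had the lowest p of the higher genes (unadjusted p = 0.00141 by edgeR), with a log2 fold change of 0.30 and a standard error of 0.081. Its counts, 371, 665 and 978 in Mbd5+/GT and 326, 598 and 1015 in WT mice, overlapped over nearly their whole range, and without surrogate variables the unadjusted p by edgeR was 0.38. Il1rapl1, an X-linked synaptic adhesion protein, had a log2 fold change of 0.21 with surrogate variables and 0.06 without, and Adamts6, a metalloproteinase of the ADAMTS family, 0.25 and 0.04. Nxph1, a neurexin ligand, was also on the interneuron list, with 0.19 and 0.15. The others were AW011738 (0.32), Serpind1, a thrombin inhibitor (0.26), Gtpbp8, a GTP-binding protein (0.13), and Zfp677, a zinc finger gene (0.30).

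**Figure D3:**
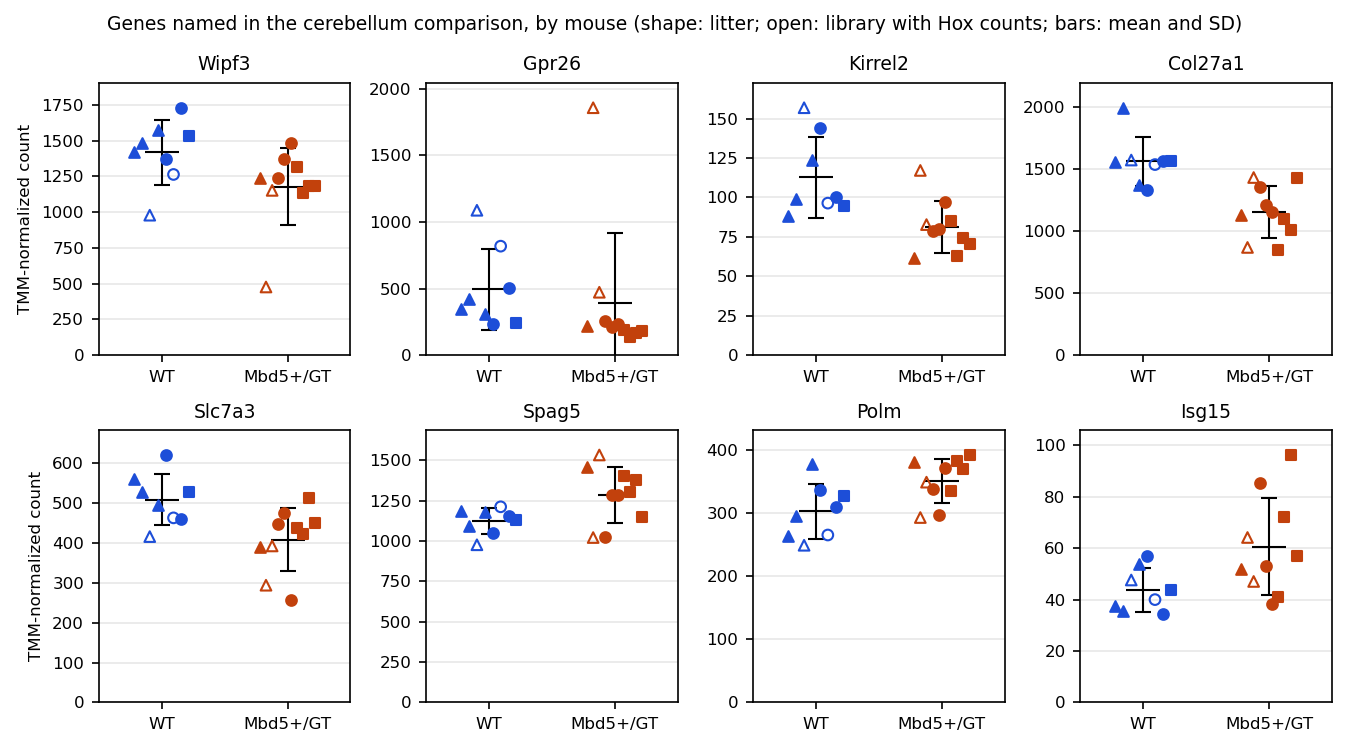
TMM-normalized counts of 8 named genes by mouse, with the mean and SD of each genotype, marker shape for litter and open markers for libraries with Hox counts. The genotypes overlap in each gene, the highest Gpr26 and lowest Wipf3 values of each genotype are those of mice M755 and M754, and the lower SD bar of Gpr26 in Mbd5+/GT is clipped at 0.

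**Figure D4:**
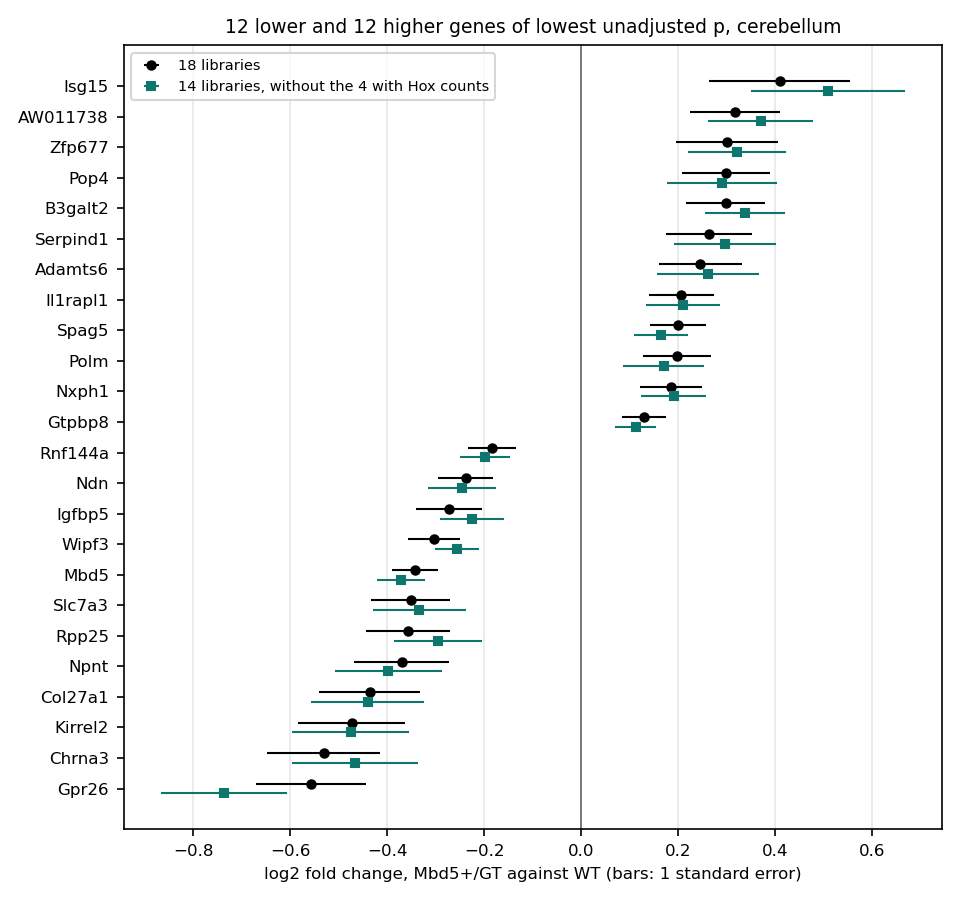
Log2 fold changes of Mbd5+/GT against WT with 1 standard error for the 12 lower and 12 higher genes of lowest unadjusted p, from all 18 libraries (black) and without the 4 libraries with Hox counts (green). The genes were chosen by the black values; Gpr26 shifts from -0.56 to -0.74, and all 24 keep their direction.

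The lists of genes that mark the cell types of the cerebellum held 0 nDEGs among Purkinje cell and granule cell genes. All 23 Purkinje genes were tested, with a median log2 fold change of -0.10, and all 20 granule cell genes, with a median of -0.22. Over all genes tested the median was -0.0035. Without mouse M755 the medians were -2.46e-06 and -0.02, and without the 4 libraries with Hox counts -0.05 and -0.04, with 1 granule cell gene a lower nDEG. With all 18 libraries and no surrogate variables the medians were 0.02 and -0.0021. Cbln3, which marks granule cells, had a log2 fold change of -0.39 with a standard error of 0.370, and of -0.0013 without the 4 libraries with Hox counts. The mean level of the Purkinje list was 4.32, 7.70 and 7.97 (lowest, median, highest log2 CPM) in Mbd5+/GT and 6.39, 7.75 and 7.87 in WT libraries, and that of the granule list 3.94, 8.33 and 8.52 against 6.995, 8.36 and 8.46. The lowest values were those of mice M755 and M754. The part that the makeup of these libraries plays in the results was not tested. The 2 genes of unipolar brush cells, excitatory interneurons of the granular layer, held 0 nDEGs, with a median of -0.20. In bulk tissue, fewer cells of a type and less RNA per cell cannot be told apart.

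Counts of nDEGs in the lists below stand against 0.964% higher and 1.78% lower nDEGs among all genes. Of 14 genes of cerebellar inhibitory interneurons 1 was higher, Nxph1, and the list's median log2 fold change was -0.05. Without the 4 libraries with Hox counts 1 was also lower, and without surrogate variables 0 were nDEGs. Of 19 genes of astrocytes and Bergmann glia, the radial astrocytes that ensheath Purkinje cells, 2 were higher and 1 lower, with a median of -0.0048. The lower gene was Wif1, a secreted Wnt inhibitor, at 21.3, 51.0 and 90.1 counts in Mbd5+/GT against 36.6, 84.9 and 140 in WT mice (log2 fold change -0.60, standard error 0.249), but in litter 2 its mean was higher in Mbd5+/GT by 0.65, and without mouse M755 its unadjusted p by edgeR was 0.063. The higher genes were Itih3, an extracellular hyaluronan-binding protein (0.21, unadjusted p = 0.105 by edgeR without mouse M755), and Gfap, the astrocyte intermediate filament (0.23). Gfap reached 44472 counts in mouse M755 against at most 9616 in WT mice, and its unadjusted p went from 0.049 to 0.12 without that library by edgeR. The astrocyte list thus held 0 nDEGs without mouse M755, but 1 higher and 1 lower without the 4 libraries with Hox counts. Without surrogate variables it held 1 lower nDEG.

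Genes of the oligodendrocyte lineage, which makes myelin, held 2 lower nDEGs. Of 18 oligodendrocyte genes, Olig1, a transcription factor of the lineage, was an nDEG (log2 fold change -0.20, standard error 0.065), with counts of 815, 1543 and 5904 in Mbd5+/GT and 1229, 1563 and 4806 in WT mice. Of 10 oligodendrocyte precursor genes, Gpr17, a receptor of committed precursors, was lower at -0.33, with counts of 351, 590 and 2243 against 603, 779 and 2232. The highest counts of both genes in each genotype were those of mice M755 and M754, and without mouse M755 the unadjusted p by edgeR was 0.046 for Olig1 and 0.069 for Gpr17. The list medians were -0.05 and -0.04, and -0.06 for each without the 4 libraries with Hox counts. Without surrogate variables both lists held 0 nDEGs, and their medians were 0.10 and -0.09. Of 20 endothelial and mural cell genes, 19 had a log2 fold change below 0, with a median of -0.12 and 1 nDEG, the mural potassium channel gene Kcnj8 (-0.21, standard error 0.082), which was no nDEG without mouse M755; the median was -0.11 without mouse M755 and -0.09 without the 4 libraries. No microglial gene of 18 and no meningeal gene of 14 was an nDEG, with medians of 0.01 and -0.01.

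Markers of tissue around the cerebellum varied widely within each genotype. The 16 choroid plexus genes held 0 nDEGs, and their mean level ranged from 0.45 to 4.92 log2 CPM in Mbd5+/GT and from 0.49 to 5.17 in WT libraries. Their median log2 fold change was -0.20 with all libraries, -0.12 without mouse M755 and 0.25 without the 4 libraries with Hox counts. The 40 tested genes of motile cilia, the beating cilia of choroid plexus and ependyma, had 0 nDEGs and a median of -0.14 with all libraries, 0 and -0.09 without mouse M755, and 1 higher and 0.03 without the 4 libraries. Brainstem cholinergic and monoaminergic genes had 0 nDEGs of 7, with medians of -0.11, 0.35 and 0.09. None of the 39 Hox genes passed the filter. All 6 erythrocyte genes had a log2 fold change above 0, with a median of 0.40 and 0 nDEGs, and Hbb-bs, a beta-globin, had 0.49 with a standard error of 0.333.

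**Figure D5:**
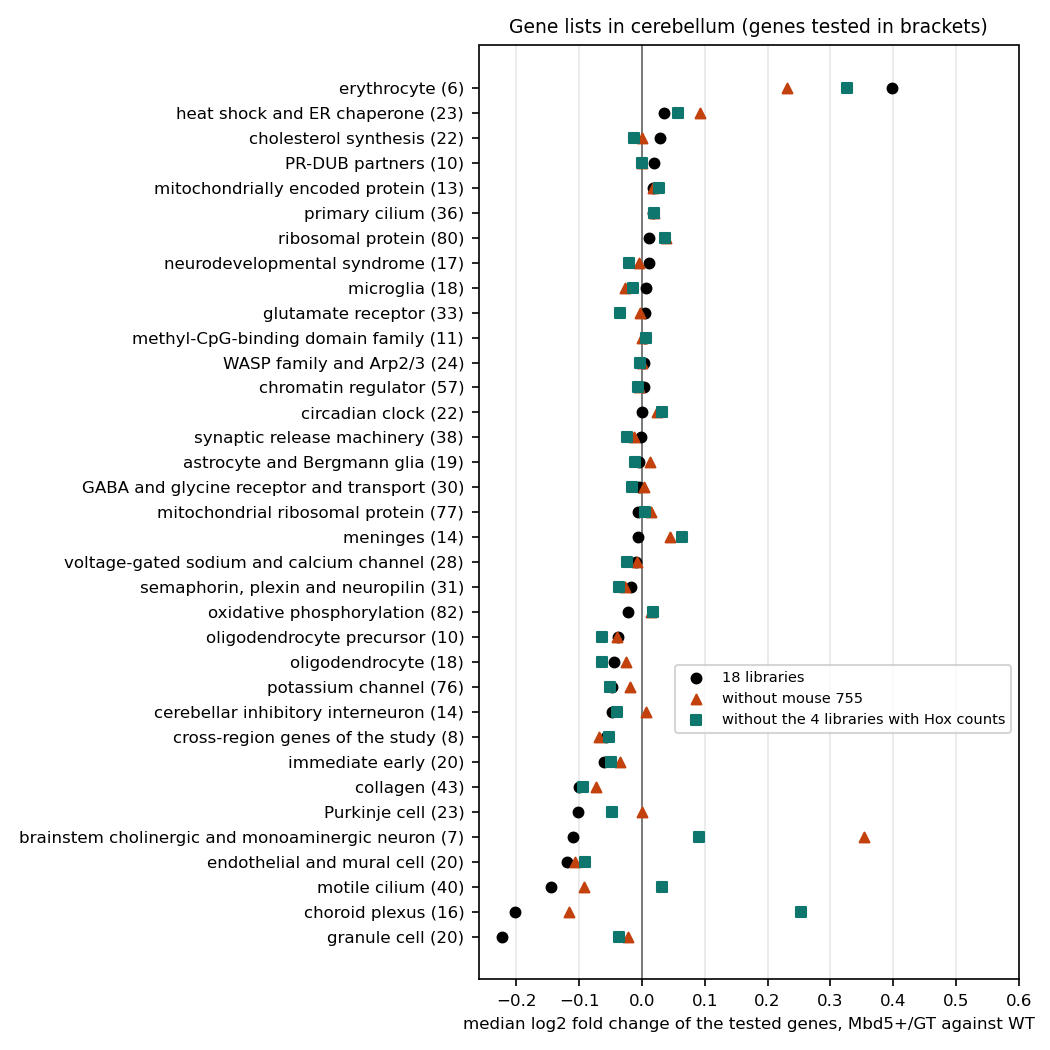
Median log2 fold change of the tested genes of each list (number in brackets; lists of 6 or more), from all 18 libraries (circles), without mouse M755 (triangles) and without the 4 libraries with Hox counts (squares). Granule cell genes move from -0.22 to -0.02 without mouse M755, and choroid plexus genes from -0.20 to 0.25 without the 4 libraries, while the chromatin and methyl-CpG-binding lists stay near 0.

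Among the genes closest to Mbd5 in function no other nDEG was found. Apart from Mbd5, none of the 11 genes of the methyl-CpG-binding domain family was an nDEG, and the list's median log2 fold change was 0.01. Mbd6, a close paralogue of Mbd5, had 0.02 (95% interval -0.07 to 0.10). The 10 PR-DUB genes held 0 nDEGs with a median of 0.02; Bap1, the catalytic subunit, had 0.0028 (95% interval -0.07 to 0.07), and Ogt, the O-GlcNAc transferase bound by the complex, 0.01 with a standard error of 0.047. The 17 genes of neurodevelopmental syndromes that resemble MBD5 deletion held 0 nDEGs, with a median of 0.01, and the 57 chromatin regulators 0 nDEGs, with a median of 0.0027.

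The lists of glutamate receptors, GABA and glycine signalling and ion channels contributed a few lower nDEGs and no higher one with 2 surrogate variables. Without surrogate variables they held none. Of 33 glutamate receptor genes, 2 were lower and both encode auxiliary subunits of AMPA receptors: Cacng4 with a log2 fold change of -0.22 (standard error 0.062) and Cnih3 with -0.27 (standard error 0.108). Cacng4 counts were 863, 1092 and 1457 in Mbd5+/GT and 1017, 1199 and 1625 in WT mice. Without the 4 libraries with Hox counts 4 genes were lower, among them Grin2c, the NMDA receptor subunit of granule cells, at -0.09. Of 76 potassium channel genes 3 were lower, Kcnf1 (-0.36), Kcnj8 and Kcnj5 (-0.64), and 58 had a log2 fold change below 0, with a median of -0.05. Kcnj5 was measured at 2.03 to 43.9 counts, and neither it nor Kcnj8 was an nDEG without mouse M755, where 2 of the list were lower. Genes of GABA and glycine signalling (30 tested) and of voltage-gated sodium and calcium channels (28 tested) held 0 nDEGs, with medians of -0.0048 and -0.01.

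Of 38 genes of synaptic vesicle release, 3 were lower: Cplx2, a complexin that controls vesicle fusion (-0.15), and the synaptotagmins Syt13 (-0.11) and Syt12 (-0.11). Cplx2 counts were 11368, 24717 and 28592 in Mbd5+/GT and 15443, 28022 and 33198 in WT mice, with the lowest of each genotype in mice M755 and M754. Syt13 was no nDEG without mouse M755 (-0.07, unadjusted p = 0.090 by edgeR) or without the 4 libraries with Hox counts (p = 0.080). Syt12 was none without mouse M755 (p = 0.0999). The list held 2 lower nDEGs without mouse M755, 4 lower and 1 higher without the 4 libraries, and 0 without surrogate variables. Of 31 semaphorin, plexin and neuropilin genes, which guide axons, Sema5b was lower (-0.21, unadjusted p = 0.047 by edgeR), with an unadjusted p of 0.093 without mouse M755, and 3 of the list were lower without the 4 libraries. Of 43 collagen genes 3 were lower, Col27a1, Col7a1 (-0.18) and Col13a1 (-0.34), 34 had a log2 fold change below 0, and the median was -0.10. Collagens held 2 lower nDEGs and a median of -0.07 without mouse M755, 4 and -0.09 without the 4 libraries with Hox counts, and 1 and -0.12 without surrogate variables. The background share of lower nDEGs, 1.78%, corresponds to less than 1 gene in each of these lists except the potassium channels.

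Lists of translation, respiration and stress had medians close to that of all genes. Of 80 ribosomal protein genes Rplp2 was lower (-0.12), and the list's median was 0.01. Of 82 nuclear genes of oxidative phosphorylation Cox6a2, a subunit of cytochrome c oxidase, was lower (-0.55), with a median of -0.02. The 13 mitochondrially encoded genes, the 77 mitochondrial ribosomal protein genes, the 36 primary cilium genes, the 22 cholesterol synthesis genes, the 22 clock genes and the 20 immediate early genes held 0 nDEGs, with medians between -0.06 and 0.03. The 23 heat shock and endoplasmic reticulum chaperone genes held 0 nDEGs with all libraries and a median of 0.04. Without mouse M755 2 of them were higher, and without the 4 libraries with Hox counts 4, with a median of 0.06, among them Ddit3, a transcription factor of the unfolded protein response (0.19), and Xbp1, another (0.22).

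Of 8 genes that the study singled out across brain regions on these samples, 3 were lower and 2 higher nDEGs in the cerebellum, which is no independent evidence since the list was chosen with these libraries. The lower genes were Wipf3, Gpr26 and Kirrel2, and the higher ones Pop4 and Fxyd5, a regulator of the sodium pump, which had a log2 fold change of 0.22 with a standard error of 0.094. Gcnt2, a glycosyltransferase, had -0.17, Npr2, a natriuretic peptide receptor, 0.05, and Lgi4, a secreted protein of glia, 0.08, and none of these was an nDEG. In the cortex fit Gcnt2 had -0.40, Npr2 0.18 and Lgi4 0.21. Kirrel2, Fxyd5, Lgi4 and Pop4 lie on chr7 between 30447534 and 38271423 of GRCm38.

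No gene near Mbd5 on chromosome 2 was an nDEG. Of 26 tested genes whose start lies within 5 Mb of that of Mbd5, 21 of them protein-coding, 0 were higher and 0 lower, with a median log2 fold change of -0.0019. Orc4, a subunit of the origin recognition complex and the nearest of them by start, had 0.0033 with a standard error of 0.063. Acvr2a, an activin receptor on the same side, had -0.0013 with a standard error of 0.059, and Epc2, a subunit of a histone acetyltransferase complex 502 kb away on the other side, had -0.0026 with a standard error of 0.046. nDEGs made up 3.04% of the genes of chromosome 2 and between 2.09% and 4.34% of those of each autosome or the X chromosome, against 2.75% overall.

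Sexes and litters were compared by direction, and the sexes also by an interaction test. That test held no surrogate variables, without which Mbd5 itself was not called, so a count of 0 genes does not show equal effects. Of the 175 higher nDEGs, 124 (70.9%) had higher mean log2 CPM in Mbd5+/GT in each of the 3 litters, and of the 324 lower ones, 170 (52.5%) were lower in each. Over all genes tested, 13.6% had the direction of their fitted log2 fold change in each of the 3 litters. These shares describe genes chosen on the same libraries. The genotype effect differed between males and females at an adjusted p under 0.05 by edgeR in 0 of 18160 genes (0%) and at an unadjusted p under 0.05 in 98 (0.54%), and DESeq2 gave 0 at the adjusted and 103 at the unadjusted threshold. Mbd5 was lower in Mbd5+/GT by 0.30 in females and 0.50 in males on the log2 CPM scale, and the difference did not pass (interaction -0.20, unadjusted p = 0.515 by edgeR). All 4 libraries with Hox counts came from females, so a contrast of the sexes also contrasts these libraries. Without mouse M755 the interaction by edgeR passed the unadjusted threshold in 178 of 18047 genes. Without the 4 libraries it did so in 171 of 18085, and in both settings 0 genes passed the adjusted threshold.

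The genotype effect in the cerebellum was set against those in the cortex and striatum of the same mice, in 1 model over all 54 libraries. This model held no surrogate variables, without which Mbd5 itself was not called in the cerebellum. A count of 0 genes therefore does not show that the regions respond alike. By edgeR, 0 of 20477 genes (0%) had an adjusted p under 0.05 for a difference from cortex and 0 (0%) for a difference from striatum. At an unadjusted p under 0.05 there were 228 (1.11%) and 548 (2.68%), and without the cerebellum library of mouse M755 there were 593 and 1192. The effect on Mbd5 was smaller in the cerebellum than in cortex by 0.14 with a standard error of 0.167 and than in striatum by 0.04 with a standard error of 0.167, and neither difference passed the test (unadjusted p = 0.407 and 0.83 by edgeR). For Col27a1 the cerebellum effect was lower than that in cortex by 0.40 with a standard error of 0.160 (unadjusted p = 0.0166 by edgeR). Col27a1 had been chosen by its low p in the same cerebellum libraries, so this contrast is no independent evidence. For Gfap the cerebellum effect was higher than in striatum by 0.91, and by 0.30 without the 4 cerebellum libraries with Hox counts. With the mouse as a replicate block, which pairs the regions of each mouse, 0 genes passed the adjusted threshold in either contrast, and 205 and 541 passed the unadjusted one. A marker varied widely in the other regions as well: Drd2, a receptor of striatal neurons, ranged from 3.01 to 206 CPM in libraries labelled striatum and from 1.05 to 41.8 CPM in those labelled cortex. The source of this spread was not tested.

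The genotypes overlapped on the main axes of variation among the 18 libraries. The first principal component of log2 CPM held 42.2% of the variance. Y-linked genes, Gabra6, Pcp2 and Cbln3 led its negative end, and Lamp5, Glra1 (a glycine receptor) and Slc5a7 (the choline transporter) its positive end, with mouse M755 at 3.05 SD and mouse M754 at 1.94 SD. The second held 27.5%, with Ttr, Kcne2, Folr1 and other choroid plexus genes at its positive end, and the third held 4.96%, with Xist against the Y-linked genes. The genotype means differed by -0.07, -0.22 and 0.35 SD, with p = 0.87, 0.66 and 0.47 by exact permutation tests over all splits and 0.87 for each after Benjamini-Hochberg adjustment over the 3 components.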

How the data were processed

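RNA from the cerebellum of 18 mice was sequenced as polyA libraries. Per the labels and methods the authors aligned reads to GRCm38 (Ensembl annotation) with STAR (2.4.2 in the submitters' processing notes, which also name FastQC 0.10.1) and deposited whole-number read counts per gene, not normalized. Which strand column of the counts was kept is not given in the sources used here, so genes that overlap another are uncertain, as are near-identical copies. Of its rows 47069 were genes, and 92 ERCC spike-ins were left out. GENCODE M21 (GRCm38) named 46574 genes. All 54 columns were mapped to samples by the labels.

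A gene was tested if its count exceeded 4 in 8 or more of the 18 libraries (18160 genes), with edgeR 4.0.16 (R 4.3.3): TMM scaling, robust quasi-likelihood test, genotype and 2 surrogate variables (the study's number) from sva 3.50.0, and Benjamini-Hochberg adjustment. The standard error is the fold change over the square root of F. Fold changes of cortex and striatum came from the same model with 4 surrogate variables. Interactions with sex and region had none. For list levels, log2 CPM took a prior count of 2. DESeq2 1.42.0 was an alternative. The code was tested on simulated data.

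Replicates are mice. Pairs of libraries of 1 genotype differed by a chi-square of at least 8.13 per gene (median 55), which is more than counting noise alone gives. With 1 library per mouse and region, mice, dissection and library preparation cannot be told apart as its source. Deviations from group means correlated between regions of 1 mouse (median 0.181 for cerebellum with cortex, 0.0675 with striatum), against -0.00517 and -0.00941 between different mice; the mouse number pairs regions because they came from the same animal. Genotypes share no mouse.

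The gene lists and the comparison were chosen with earlier results of these data known. Named were Mbd5 and genes past the adjusted threshold, the 12 higher and 12 lower genes of lowest p with a mean count of at least 50, up to 3 nDEGs a list (otherwise up to 2 of its most abundant members), 8 genes of the study, non-overlapping genes, and leading genes of the components. Genes named outside this rule, in the report and in the closing section, were chosen after their values were seen. Leaving out mouse M755, and the 4 libraries with Hox counts, was decided after seeing the data.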

Additional observations from a re-analysis of the deposited data

Results flagged for a closer look

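Within a genotype, a library was singled out where its distance from the nearest other library was a large part of the group's whole range (Dixon's 95% criterion). This was examined in 94 groups of values of named genes and 72 of gene lists, where chance gives about 1 in 20, and it held in 27 and 18 of them. The library was that of Mbd5+/GT mouse M755 in 32 cases and that of WT mouse M754 in 11, the same libraries that held few cerebellar markers and many Hox reads. All values are log2 CPM, and means over the genes for lists.

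In mouse M755 the value stood below all other Mbd5+/GT mice for Wipf3 (3.94), Igfbp5 (5.93), Syt13 (6.69), Cplx2 (8.51), Syt12 (5.43), Col7a1 (3.02), Cox6a2 (-2.95), Npr2 (6.07) and Lgi4 (5.97). It stood above them for Nxph1 (5.88), Gpr26 (5.90), Chrna3 (2.04), Rpp25 (3.26), Npnt (2.76), Gfap (10.5), Olig1 (7.56), Gpr17 (6.17), Kcnf1 (3.31), Sema5b (3.91), Wipf1 (5.14) and Gcnt2 (3.38). Among lists, it stood below for Purkinje cells (4.32), granule cells (3.94), unipolar brush cells (-1.17), meninges (2.81) and clock genes (5.50), and above for oligodendrocytes (8.83), their precursors (5.29), microglia (4.33), brainstem cholinergic and monoaminergic neurons (3.65), cholesterol synthesis (6.37) and the 8 genes singled out by the study (4.42).

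In WT mouse M754 the value stood apart for Serpind1 (3.43), Olig1 (7.27), Gpr17 (6.16), Col7a1 (3.85) and Npr2 (6.09), and for the lists of granule cells (6.99), oligodendrocytes (8.22), microglia (3.78), clock genes (5.72), cholesterol synthesis (5.83) and the 8 genes of the study (4.41). The other cases were Col27a1 in WT mouse M752 (6.00, against at most 5.66 in other WT mice) and erythrocyte genes in WT mouse M765 (4.62, against at most 3.62).

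Hox genes did not pass the filter and were tested only in the alternative without a filter on low counts. Their summed reads in mouse M755, 599 CPM, were above the highest WT value of 176 CPM in mouse M754.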

How the results depend on the processing

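Mbd5 stayed lower in Mbd5+/GT mice under every alternative run, but its call did not stay. The log2 fold change and adjusted p by edgeR were -0.39 and 1 without surrogate variables, -0.39 and 1 with 1 surrogate variable, -0.31 and 1 with litter and sex in their place, -0.29 and 0.336 without litter 2, -0.29 and 1 in females alone and -0.49 and 1 in males alone. Leaving out 1 mouse at a time gave -0.38 to -0.32, with adjusted p-values from 0.00277 to 0.0619, the highest without WT mouse M759.

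Genes at an adjusted p under 0.05 numbered 3 by DESeq2 (Mbd5, Wipf3 and Gpr26), 2 with no filter (Mbd5 and Hoxd8), 2 with at least 10 counts in every library and 2 with 3 surrogate variables (Mbd5 and Wipf3 in each). They numbered 0 without surrogate variables, with 1, with litter and sex, without litter 2 and in either sex alone, and 0 to 2 with 1 mouse left out (0 without WT mouse M759, 2 without Mbd5+/GT mouse M758). nDEGs numbered 1290 with no filter, where 30458 genes were tested, 84 without surrogate variables, 212 with 1, 96 with litter and sex, 37 in females and 296 in males, and 397 to 712 with 1 mouse left out (without WT mouse M754 and without Mbd5+/GT mouse M758). Genes with no overlap between genotypes numbered 2 without the 4 libraries with Hox counts. Apart from the changes in the number of genes or mice, the cause was not tested. The fit of females held all 4 libraries with Hox counts and that of males none, so sex and these libraries are not separated there.

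Most calls of named genes rested on the 2 surrogate variables. Of 43 named genes called, 10 kept their call without surrogate variables, 23 with 1, 5 with litter and sex, 1 in females and 20 in males, against 40 with 3 surrogate variables, 42 by DESeq2, 31 without mouse M755 and 37 without the 4 libraries with Hox counts. Rplp2 changed sign without surrogate variables (0.0012), with 1 (0.0011) and in males (0.0642). Gpr26 (0.0345), Olig1 (0.0653) and Cnih3 (0.126) did so in females, where all 4 libraries with Hox counts lie, and Kcnj5 in males (0.0420). Pairing by mouse as a replicate block is possible between regions only and changed no adjusted call: 0 genes in each contrast, and 205 against 228 (cortex) and 541 against 548 (striatum) at the unadjusted threshold.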

Other observations

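Interferon-stimulated genes, which cells switch on in response to interferon as a defence against viruses, were in part higher in Mbd5+/GT cerebellum. The list was drawn up after Isg15, Ifit1 and Irf7 had been seen among the nDEGs, so its counts describe these libraries only. Of 34 tested genes 7 were higher, 0 were lower and 30 had a log2 fold change above 0, with a median of 0.27, where 0.964% of all genes were higher nDEGs. Ifit1, an RNA-binding antiviral protein, had counts of 76.7, 140.3 and 320.4 (lowest, median, highest) in Mbd5+/GT and 80.3, 97.8 and 130.2 in WT mice. Irf7, a transcription factor of the response, had a median of 92.6 and a highest count of 184.8 against 68.1 and 103.6. The ranges overlapped in both genes, and the highest values came from mouse M767. Their log2 fold changes were 0.59 with a standard error of 0.226 for Ifit1 and 0.44 with a standard error of 0.167 for Irf7, and the adjusted p of each by edgeR was 0.9999. Without mouse M767 the list had 5 higher genes and a median of 0.16, without the 4 libraries with Hox counts 12 and 0.37, in females alone 1 and 0.09, in males alone 7 and 0.44, and with litter and sex in place of surrogate variables 0 and 0.23. All 4 libraries with Hox counts were in the fit of females. In the cortex fit 0 of the 34 were nDEGs, with a median of 0.01, and in the striatum fit 0, with a median of -0.05.

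Without the 4 libraries with Hox counts, 2 of 18160 genes (0.011%) had normalized counts that did not overlap between genotypes, and both were lower in Mbd5+/GT. There are only 3003 ways to split these mice 8 against 6, so among 18160 genes some separate without a genotype effect. The number of such genes is therefore no sign of one, and the 4 libraries were left out after the data were seen. Sfrp2, a secreted Wnt inhibitor, had 7.68 to 13.8 counts in 8 Mbd5+/GT mice and 16.5 to 22.3 in 6 WT mice, while the omitted mice held 100.8 (M755) and 27.0 (M756) counts in Mbd5+/GT and 99.0 (M754) and 35.9 (M761) in WT. Lypd1, which binds nicotinic receptors at the cell surface, had 347 to 454 counts against 462 to 573, while the omitted mice held 1917 (M755) and 578 (M756) in Mbd5+/GT and 1357 (M754) and 778 (M761) in WT. The list of nicotinic receptor genes was drawn up after its values were seen. With all 18 libraries, Chrna3 and Chrnb4, neighbours on chromosome 9, were lower nDEGs with log2 fold changes of -0.53 and -0.51. The other 7 tested subunits held 0 nDEGs, where 1.78% of all genes were lower nDEGs. Chrna6, at 0 to 19.5 counts, was a higher nDEG without mouse M755 (0.998) and without the 4 libraries with Hox counts (1.27). In the cortex fit Chrna3 and Chrnb4 were nDEGs in the opposite direction, at 0.81 (unadjusted p = 0.047 by edgeR) and 1.27 (p = 0.011). In the striatum fit they had -0.69 and -1.37, and neither was an nDEG there.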
